A study of Mus musculus with 27 samples.

Results

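The genes that write, maintain and remove 5-methylcytosine were followed in RNA-Seq of whole E8.5 mouse embryos that carried or lacked active DNMT3B. The 10 genes are the DNA methyltransferase genes Dnmt1, Dnmt3a, Dnmt3b and Dnmt3l, the UHRF genes Uhrf1 and Uhrf2, the dioxygenase genes Tet1, Tet2 and Tet3, and the glycosylase gene Tdg. The rows were found by gene name and not by their values, and each gene has 1 row among the 24065 genes of the count table. Of the 10, 9 reached a mean of 10 counts per embryo and were tested among 15114 genes, and Dnmt3l did not.

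RNA was measured in 3 WT and 3 Dnmt3b-/- embryos of the C57BL/6J strain, all littermates collected at E8.5, with 1 library for each embryo. The mutant allele was made by crossing Dnmt3b-2lox mice to a deleter line with Cre under the ACTB promoter, which recombines in the whole animal, and mating heterozygous males and females then gave homozygous embryos with a catalytically inactive enzyme. The WT embryos are the littermates without the mutant allele. The 21 methylation libraries of the series were not analysed here, so all values below are transcript levels.

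In mammals, DNMT3A and DNMT3B place methyl groups on unmethylated CpG sites, helped by DNMT3L, which has no catalytic activity of its own. UHRF1 binds CpG sites that are methylated on one strand after replication and brings in DNMT1, which copies the mark to the new strand. UHRF2 resembles UHRF1 in its domains but does not take its place in maintenance. The TET enzymes oxidize 5-methylcytosine in steps, and TDG excises the last oxidized forms, so that base excision repair can restore an unmodified cytosine.

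The sequences of 2 primer pairs of the study show where the targeted part of Dnmt3b lies, since a count per gene does not separate it from the rest of the transcript. The pair named for the floxed exon matched exon 17 of 23 of the transcript (mm10, chr2:153676744-153676833, plus strand, 90 bases), and the other pair matched exon 23, the last (chr2:153686463-153686538, 76 bases). Both were found in all 9 curated RefSeq transcripts of Dnmt3b.
Floxed exon, forward: cctccgaagtctgtgcagag
Floxed exon, reverse: tggtgattttccggacgtca
Last exon, forward: cacctcacctgtccccttttt
Last exon, reverse: cactgagcaggagaaagctga

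A further stretch is shown because it limits what can be said of Tdg. It consists of 75 bases of coding sequence (mm10, chr10:82641316-82641390, plus strand), as long as 1 read.
Tdg coding window: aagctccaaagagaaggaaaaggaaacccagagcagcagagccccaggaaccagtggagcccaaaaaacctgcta
The same 75 bases occur on the minus strand of chromosome 7 (76245738 to 76245812), on the minus strand of chromosome 10 (42055105 to 42055179) and on the plus strand of chromosome 15 (82516611 to 82516685). Of all 75-base windows within the exons of Tdg, 72.7% had an exact copy elsewhere in the genome. The share was 15.1% for Uhrf1, with a copy of 97.8% identity on the X chromosome annotated as Gm5648, and 4.98% for Dnmt3b, whose copy of 97.1% identity, Dnmt3b-ps1, lies further along chromosome 2. For the other members it was at most 0.39%. How reads with several matches were counted is not given in the sources used here, so the counts of Tdg, and to a lesser degree those of Uhrf1 and Dnmt3b, are uncertain.

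Raw counts on genes summed to between 41489332 and 58470286 per embryo, so that 3 counts correspond to between 2.37 and 3.49 normalized counts. WT embryo 2 stood apart from the others, with 965117 normalized counts of the ribosomal RNA precursor Rn45s against at most 470770, and 51314 of Lars2 against at most 415. Rn45s also differed by genotype without overlap, with 458314 or more in each WT embryo and 165563, 136546 and 108138 in Dnmt3b-/- embryos 1, 2 and 3. Genes with a count numbered 17623 to 18094 in WT and 16035 to 17286 in Dnmt3b-/- embryos, again without overlap. The part of these library differences in the results was not tested. Xist was near 0 in WT embryo 2 and in Dnmt3b-/- embryos 1 and 3, and high in the other 3. Across all genes the change in Dnmt3b-/- embryos ran with the exonic GC content. The median log2 fold change fell from 0.32 in the quintile of genes with the lowest GC content through 0.13, -0.04 and -0.27 to -0.52 in the quintile with the highest. Values after a correction for GC content and length are therefore given beside the members that it moved, and the part of GC content in these results was not tested. In whole embryos, fewer cells of a type and less RNA per cell cannot be told apart.

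In WT embryos, the maintenance genes were the most abundant members per exon length. Uhrf1 led with 152 ± 5.54 FPKM (mean ± SD, n = 3), a count of fragments per exon length and library size, which was above 97.1% of the tested genes. Dnmt1 followed with 87.8 ± 4.06 FPKM. Uhrf2 stood at 52.4 ± 2.01 FPKM and Dnmt3b at 44.3 ± 20.2 FPKM, and the ranges of these last 2 overlapped. The overlap came from WT embryo 2, since Dnmt3b was at 35.1, 67.4 and 30.3 FPKM in WT embryos 1, 2 and 3. Dnmt3a, at 12.2 ± 0.826 FPKM, lay 3.64-fold below Dnmt3b by their means. Within WT embryos 1, 2 and 3 it was 2.71, 5.96 and 2.48-fold below. The TET genes came next, with Tet3 at 5.67 ± 0.255 FPKM, Tet1 at 4.70 ± 0.519 FPKM and Tet2 at 1.82 ± 0.0782 FPKM. Each of these was separated from its neighbours in the order by ranges that did not overlap. Dnmt3l and Tdg came last, at 0.0622 ± 0.0491 and 0.0469 ± 0.0421 FPKM, with overlapping ranges. The place of Tdg is uncertain, since most of its exon windows have an exact copy elsewhere in the genome. In Dnmt3b-/- embryos the order was the same except that Tet1, at 4.65 FPKM, and Tet3, at 4.30 FPKM, had traded places with overlapping ranges. There Dnmt3b lay below Uhrf2 without overlap, as it also did in WT embryos 1 and 3.

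**Figure D1:**
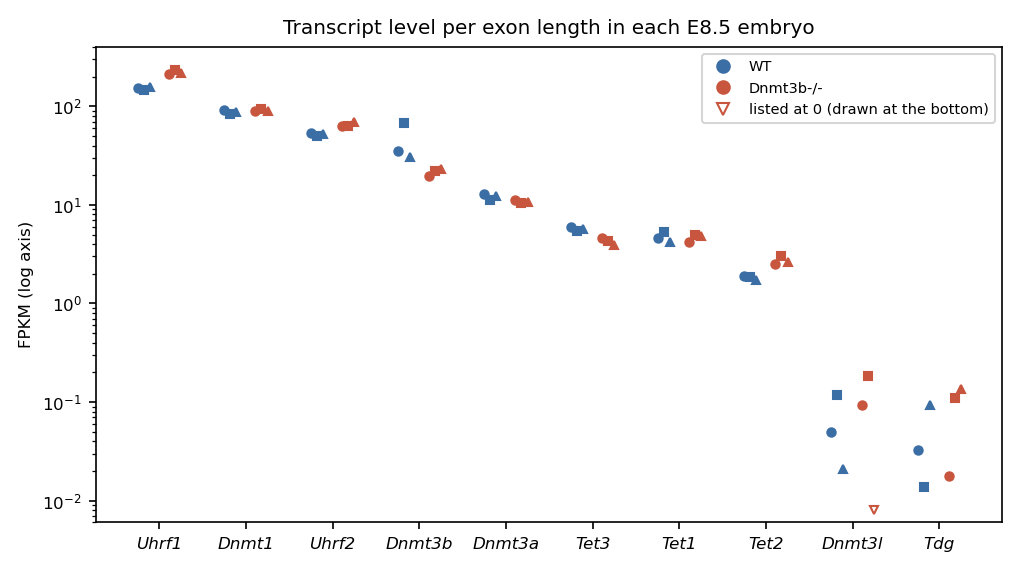
Transcript level per exon length of the 10 genes in FPKM on a log axis, with 1 point for each of 3 WT (blue) and 3 Dnmt3b-/- (red) embryos and genes ordered by their WT mean. Levels run from 152 FPKM for Uhrf1 down to 0.0469 FPKM for Tdg in WT embryos, and Dnmt3b spreads more between WT embryos than its neighbours do. The value of Tdg cannot be taken as its transcript level, since most of its exon windows recur elsewhere in the genome.

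Between the genotypes, Uhrf1, Uhrf2 and Tet2 were higher and Dnmt3b and Tet3 lower in Dnmt3b-/- embryos at an adjusted p below 0.05 (quasi-likelihood test of edgeR, Benjamini-Hochberg adjustment over all 15114 genes). These are 5 of 9 tested members, where 35.7% of all tested genes passed the same threshold, 17.6% as higher and 18.1% as lower. The same 5 genes had no overlap between the 3 WT and the 3 Dnmt3b-/- embryos, which held for 51.8% of all tested genes, 25.3% with Dnmt3b-/- higher and 26.5% with Dnmt3b-/- lower. Dnmt3b was the only member past a 2-fold change at that threshold, and it is the targeted gene. That rule was met by 5.9% of the tested genes, and by 3.78% as lower. The same 5 members passed with a replicate block, where 29.2% of all genes passed, and 4 members passed after the GC correction described below, where 26.7% did. With so many genes changed, the count of members is not a result in itself, and the values of each gene follow.

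**Figure D2:**
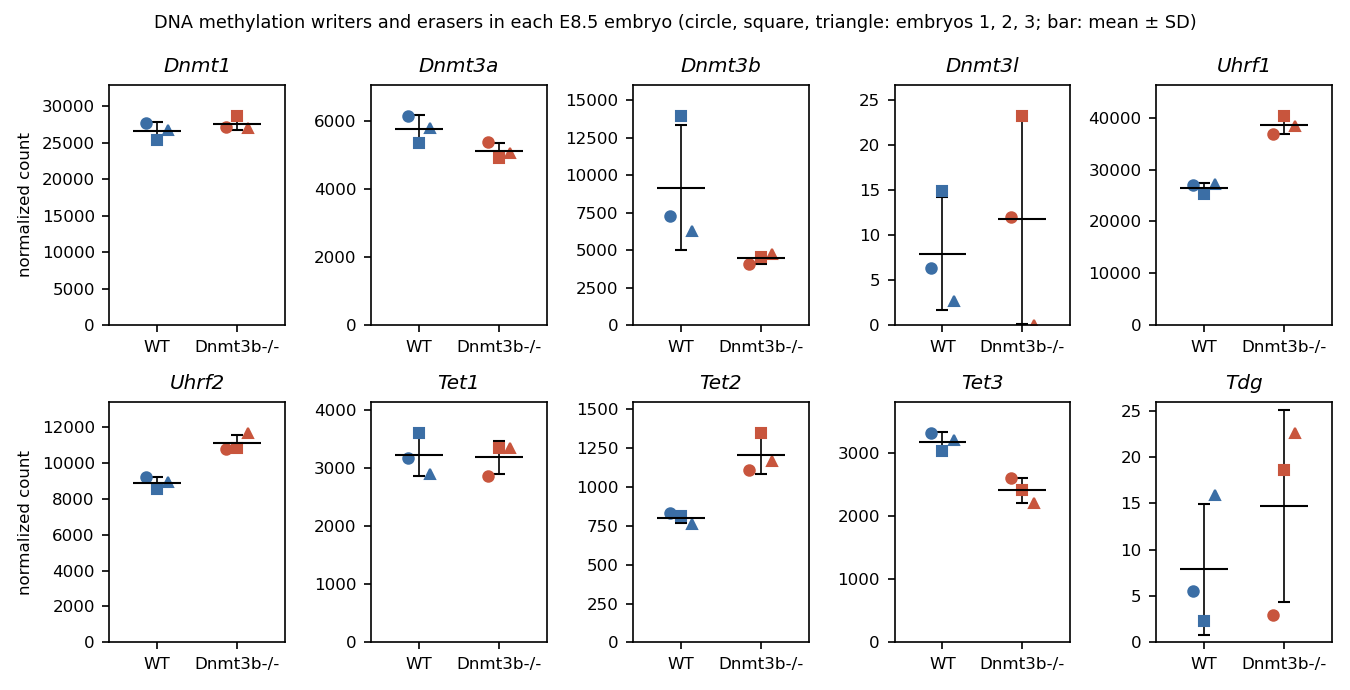
Normalized counts of each gene in 3 WT (blue) and 3 Dnmt3b-/- (red) embryos, with embryos 1, 2 and 3 as circle, square and triangle and a bar for the mean ± SD. The Dnmt3b-/- embryos lie above all WT embryos for Uhrf1, Uhrf2 and Tet2, below all of them for Dnmt3b and Tet3, and overlap them for the other 5 genes.

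The maintenance methyltransferase gene Dnmt1 had 27735, 25288 and 26683 normalized counts in WT embryos 1, 2 and 3 and 27171, 28649 and 26944 in the Dnmt3b-/- embryos. The groups overlapped, and the log2 fold change was 0.05 (SE 0.067, edgeR adjusted p = 0.564). The exons of Dnmt1 have a GC content of 54.4%, in the GC quintile whose median log2 fold change was -0.27. After the GC content and length correction Dnmt1 stood at 0.30 (SE 0.058, adjusted p = 0.00773), past the threshold. Under scaling to total counts its value was -0.02, so the direction of Dnmt1 rests on the scaling.

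Uhrf1, the factor that brings DNMT1 to replicated DNA, rose. It had 26958, 25387 and 27152 normalized counts in WT embryos and 36932, 40359 and 38388 in Dnmt3b-/- embryos. Every Dnmt3b-/- embryo was well above every WT embryo, with a spread of only 3.65% (coefficient of variation) in WT and 4.46% in Dnmt3b-/- embryos. The log2 fold change was 0.54 (SE 0.067, edgeR adjusted p = 0.00104), a 1.46-fold higher level. Its GC content of 53.8% placed it in the same quintile as Dnmt1, and after the correction the value was 0.70 (SE 0.060, adjusted p = 0.000611). Uhrf1 passed the threshold under each of the 17 alternatives, with log2 fold changes between 0.46 and 0.70.

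The rise of Uhrf1 over Dnmt1 could be read within each embryo, where depth and scaling drop out. The ratio of their FPKM values was 1.68, 1.74 and 1.76 in WT embryos and 2.36, 2.44 and 2.47 in Dnmt3b-/- embryos. The groups lay far apart compared with their SDs of 0.0406 and 0.0591, and the exact permutation test (two-sided) gave p = 0.1, the smallest value that 3 against 3 embryos allow. The ratio of Uhrf1 to Uhrf2 was also higher, with a mean of 2.90 ± 0.0491 in WT and 3.38 ± 0.220 in Dnmt3b-/- embryos (SD, n = 3, exact permutation p = 0.1).

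Uhrf1 and Dnmt1 are both genes of dividing cells, so markers of proliferation are given beside them. Of 16 such markers, 3 were higher and 4 lower at an adjusted p below 0.05, where 35.7% of all tested genes passed. Their summed level was 1818 to 1867 FPKM in WT and 1811 to 1876 FPKM in Dnmt3b-/- embryos. Top2a and Mcm7, the most abundant of them, had log2 fold changes of -0.02 (edgeR adjusted p = 0.855) and -0.22 (adjusted p = 0.0264). After the GC correction 0 were higher and 5 lower, and Top2a and Mcm7 stood at -0.38 (adjusted p = 0.00342) and -0.06 (adjusted p = 0.426). The part of proliferation in the change of Uhrf1 was not tested.

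The region before the second curated start of Uhrf1 is shown because it holds a word of the E2F factors, which drive genes of the S phase. The words TTTCCCGC, TTTCGCGC, TTTGCCGC and TTTGGCGC were searched on both strands in the 250 bases before each of 32851 RefSeq gene starts, and 1.86% of these windows held at least 1. Among the members, 1 window of Uhrf1 and 1 of Dnmt1 held TTTCGCGC. The stretch printed is mm10, chr17:56304063-56304244, plus strand, in which 182 bases hold 22 CpG sites and the capitals mark the word, 177 bases before the start.
Uhrf1 upstream: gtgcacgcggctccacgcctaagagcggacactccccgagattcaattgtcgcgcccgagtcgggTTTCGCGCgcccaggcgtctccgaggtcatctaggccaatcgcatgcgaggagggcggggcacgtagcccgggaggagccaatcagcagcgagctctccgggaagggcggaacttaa
A match of letters is a description and no evidence that a factor was bound. The window before the curated start of Tet2 (chr3:133544391-133544640, minus strand) held 51 CpG sites, and 0.07% of the windows held at least as many, against a median of 6. That of Dnmt3b (chr2:153649199-153649448) held 21. The methylation of these sites was not analysed here.

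Uhrf2 had 9181, 8510 and 8939 normalized counts in WT embryos and 10789, 10801 and 11645 in Dnmt3b-/- embryos, without overlap. The log2 fold change was 0.32 (SE 0.069, edgeR adjusted p = 0.00844). This gene has a lower GC content of 47.2%, and after the correction its value was 0.12 (SE 0.060, adjusted p = 0.165). The rise of Uhrf2 was therefore not past the threshold after the GC correction.

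Dnmt3b, the targeted gene, was still transcribed. It had 7263, 13956 and 6280 normalized counts in WT embryos and 4063, 4541 and 4740 in Dnmt3b-/- embryos. All 3 Dnmt3b-/- embryos were below all WT embryos, but WT embryo 2 was far above WT embryos 1 and 3. The log2 fold change was -1.04 (SE 0.27, edgeR adjusted p = 0.0169). Without WT embryo 2 it was -0.61 (SE 0.098, adjusted p = 0.0026), and without Dnmt3b-/- embryo 1, 2 or 3 the adjusted p was 0.0608, 0.0613 and 0.0555. WT embryo 2 also stood apart in cell type markers, named here after their values were seen. The pluripotency gene Pou5f1 had 837 normalized counts there against 71.1 and 68.8 in WT embryos 1 and 3. Nanog, another pluripotency gene, did not stand apart, with 26.85, 30.9 and 22.05 in WT embryos 1, 2 and 3. All 9 markers of extraembryonic endoderm were highest in that embryo, with Apob at 87330 normalized counts against 27020 and 8085, while the embryonic globin gene Hbb-y was at 450 against 11514 and 15569. The part of these cells in the level of Dnmt3b was not tested. The spread of Dnmt3b was 45.6% in WT and 7.83% in Dnmt3b-/- embryos. The Dnmt3b-/- embryos are homozygous for an allele from which Cre deletes catalytic exons, so the remaining level is that of mutant transcript. Counts and FPKM cover all exons in both genotypes, so the Dnmt3b values of Dnmt3b-/- embryos carry the loss of the deleted exons. Reads of the floxed exon were not counted apart, and the part of that loss in the fall of Dnmt3b was not tested.

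Dnmt3a, the other de novo enzyme, had 6164, 5380 and 5818 normalized counts in WT embryos and 5397, 4923 and 5072 in Dnmt3b-/- embryos. WT embryo 2 lay just below the highest Dnmt3b-/- embryo, so the groups overlapped. The log2 fold change was -0.17 (SE 0.076, edgeR adjusted p = 0.109), and after the GC correction it was 0.03 (adjusted p = 0.736). The ratio of Dnmt3b to Dnmt3a in FPKM was 2.71, 5.96 and 2.48 in WT and 1.73, 2.12 and 2.15 in Dnmt3b-/- embryos (exact permutation p = 0.1), so Dnmt3b stayed the more abundant of the pair per exon length in all 6 embryos. The sum of both fell outside the WT range, with 42.6 to 78.7 FPKM in WT and 31.0 to 33.6 FPKM in Dnmt3b-/- embryos. The ratio and the sum both carry the loss of the deleted exons, which stay in the exon length of Dnmt3b for both genotypes.

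Dnmt3l, the inactive helper of the de novo enzymes, was close to the limit of detection. Its raw counts were 8, 13 and 3 in WT and 12, 20 and 0 in Dnmt3b-/- embryos, and the 0 of Dnmt3b-/- embryo 3 allows up to 3.39 normalized counts. A difference in Dnmt3l was not detectable at this depth.

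**Figure D3:**
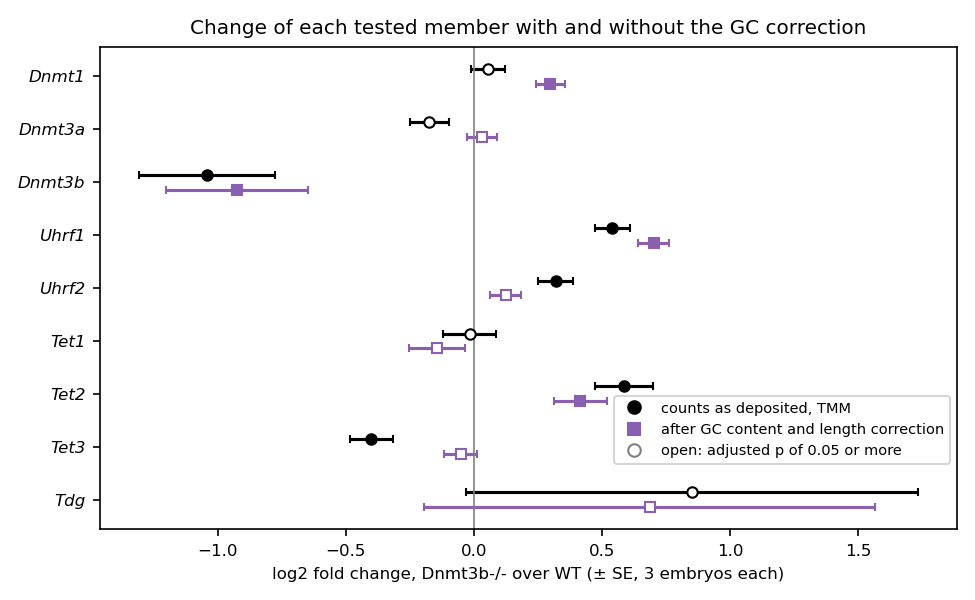
Log2 fold change of Dnmt3b-/- over WT with its SE for the 9 tested members, from the counts as deposited (black) and after a correction for GC content and length (purple), filled where the adjusted p was below 0.05. Uhrf1, Tet2 and Dnmt3b were past the threshold in both fits, Uhrf2 and Tet3 only before the correction and Dnmt1 only after it.

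Among the erasers, Tet2 rose. It had 832, 813 and 765 normalized counts in WT embryos and 1108, 1346 and 1165 in Dnmt3b-/- embryos. Every Dnmt3b-/- embryo was above every WT embryo, and the log2 fold change was 0.59 (SE 0.11, edgeR adjusted p = 0.00506). After the GC correction Tet2 stood at 0.42 (SE 0.10, adjusted p = 0.0209). It passed the threshold under each of the 17 alternatives, with log2 fold changes between 0.41 and 0.66 and an adjusted p of at most 0.0473.

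Tet3 moved in the other direction, with 3320, 3035 and 3206 normalized counts in WT embryos and 2610, 2413 and 2219 in Dnmt3b-/- embryos. The groups did not overlap, and the log2 fold change was -0.40 (SE 0.085, edgeR adjusted p = 0.00768). Its exons have a GC content of 54.0%, and after the correction the value was -0.05 (SE 0.066, adjusted p = 0.597). The fall of Tet3 was therefore not past the threshold after the correction for GC content and length, whose parts were not separated.

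Tet1 had 3179, 3609 and 2902 normalized counts in WT embryos and 2865, 3362 and 3349 in Dnmt3b-/- embryos. The groups overlapped, with a log2 fold change of -0.02 (SE 0.10, edgeR adjusted p = 0.914) and values between -0.14 and 0.07 over the alternatives.

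The makeup of the TET transcripts was compared per exon length within each embryo, from values without the GC correction, after which Tet3 did not pass the threshold. Tet2 and Tet3 differ in GC content, and the median log2 fold changes of their GC quintiles were 0.13 and -0.27, so values that set one against the other carry that trend. Tet1, Tet2 and Tet3 together made 12.2 ± 0.461 FPKM in WT and 11.7 ± 0.492 FPKM in Dnmt3b-/- embryos (SD, n = 3), and the groups overlapped. The part of Tet2 in that sum was 15.2%, 14.8% and 14.9% in WT embryos and 22.2%, 25.0% and 23.0% in Dnmt3b-/- embryos, without overlap. That of Tet3 was 47.6%, 43.2% and 48.9% in WT and 41.0%, 35.1% and 34.4% in Dnmt3b-/- embryos. Tet3 exceeded Tet2 per exon length by 3.13, 2.93 and 3.29 times in WT and by 1.85, 1.41 and 1.49 times in Dnmt3b-/- embryos (exact permutation p = 0.1). The ratio of Tet2 to Tet1, genes of similar GC content at 45.3% and 43.9%, was 0.390 ± 0.0337 in WT and 0.590 ± 0.0426 in Dnmt3b-/- embryos (exact permutation p = 0.1).

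**Figure D4:**
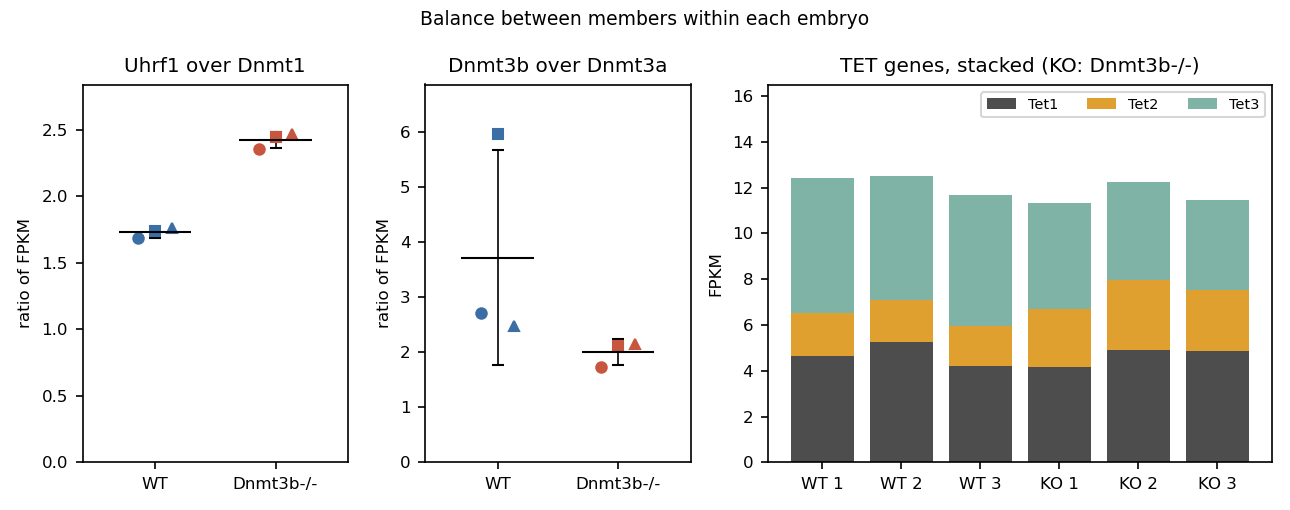
Ratio of Uhrf1 to Dnmt1 and of Dnmt3b to Dnmt3a in FPKM for each embryo with the mean ± SD, and the FPKM of Tet1, Tet2 and Tet3 stacked for each embryo. The Uhrf1 to Dnmt1 ratio goes from a mean of 1.73 in WT to 2.42 in Dnmt3b-/- embryos, and the TET sum has means of 12.2 and 11.7 FPKM with a larger Tet2 part in each Dnmt3b-/- embryo, all without the GC correction.

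Tdg, which excises oxidized cytosines, was hardly counted. Its raw counts were 7, 2 and 18 in WT and 3, 16 and 20 in Dnmt3b-/- embryos. The groups overlapped, with a log2 fold change of 0.85 (SE 0.88, edgeR adjusted p = 0.487). Since most of its exon windows recur elsewhere, as in the coding window printed above, these counts cannot be taken as the level of the transcript. The copy on chromosome 10 has a row of its own in the table, Gm9855, which was at 0 in all 6 embryos. Tdg also shares 369 of 3523 exon bases with Glt8d2 on the opposite strand, and the strand setting of the counting is not given in the sources used here.

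Each member that passed the threshold had genes with a near parallel course over the 6 embryos, ranked by Pearson's r of log2(normalized count + 1). They are given as a description, since with 6 embryos in 2 groups any gene with a like shift scores high. For Uhrf1 they were Ylpm1 (r = 1.00, log2 fold change 0.71), Zcchc2 (0.78) and Clec16a (0.58). For Dnmt3b, where WT embryo 2 weighs most, they were Camsap3, Ptpn13 and Grik3, with r between 0.992 and 0.997. Uhrf2 ran with B230219D22Rik, Ttll5 and Pabpc4l, Tet2 with Emp1, Ndc1 and Hsdl2, and Tet3 with Sepn1, Cog8 and Fam189b.

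The partners, cofactors and repair enzymes of the pathway were read from 6 lists of 74 genes in all, of which 68 were tested. Of these, 13 were higher and 18 lower at an adjusted p below 0.05 in edgeR, 45.6% against the 35.7% of all genes. After the GC correction 3 were higher and 16 lower, where 26.7% of all genes passed. These shares of all genes, 35.7% before and 26.7% after the correction, stand beside the counts of every list below. A count near them is not a result about a list. Leaving out WT embryo 1, WT embryo 3 or Dnmt3b-/- embryo 2 lowered the 13 to 8, 6 and 8.

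In the list of the S-adenosylmethionine and folate cycle, all called genes were lower. This cycle supplies the methyl group that DNA methyltransferases use. Of its 17 tested genes, 7 were lower and 0 higher in edgeR, with a median log2 fold change of -0.33 against -0.03 for all genes. Over all tested genes 35.7% passed, 17.6% as higher and 18.1% as lower. After the GC correction 11 were lower and 0 higher, where 26.7% of all genes passed in either direction, with a median of -0.40. The summed level of the list was 677 to 705 FPKM in WT and 577 to 587 FPKM in Dnmt3b-/- embryos. Shmt2, the mitochondrial serine hydroxymethyltransferase, had 5139, 4478 and 5222 normalized counts in WT and 2788, 2513 and 2287 in Dnmt3b-/- embryos, with a log2 fold change of -0.97 (SE 0.095, edgeR adjusted p = 0.000593). Its cytosolic form Shmt1 changed by -0.61 (adjusted p = 0.0011). Ahcy, which clears the S-adenosylhomocysteine left by each methylation, changed by -0.47 (SE 0.071, adjusted p = 0.00195). Shmt2, Shmt1 and Ahcy passed the threshold with each embryo left out in turn and after the GC correction, at -0.59, -0.53 and -0.45. The other 10 tested genes were not called in edgeR before the correction. Among them was Mat2a, a gene for the synthesis of S-adenosylmethionine, named after its values were seen. It stood at 0.21 (adjusted p = 0.126), and at -0.19 after the correction (adjusted p = 0.0677).

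Among the 8 partners of maintenance methylation, 4 were higher and 0 lower, with a median log2 fold change of 0.29, and after the GC correction 1 was higher and the median was 0.07. Hells, a chromatin remodeler that maintenance depends on, had 17185, 18617 and 16563 normalized counts in WT and 23814, 28667 and 32180 in Dnmt3b-/- embryos, a change of 0.69 (SE 0.11, edgeR adjusted p = 0.00247), but 0.04 after the correction (adjusted p = 0.712). Cdca7l, a relative of the Hells partner Cdca7, was higher by 0.48 (SE 0.095, adjusted p = 0.0057) and kept 0.33 after the correction (adjusted p = 0.0276). Cdca7 itself was not called, at -0.08 (adjusted p = 0.432) and -0.20 after the correction (adjusted p = 0.061). Usp7, the deubiquitinase that binds DNMT1 and UHRF1, changed by 0.29 (adjusted p = 0.0191), and it passed in 2 of the 6 fits with an embryo left out, those without WT embryo 2 or Dnmt3b-/- embryo 1. The replication clamp gene Pcna changed by 0.29 (adjusted p = 0.0265) and passed in 1 of 6, that without Dnmt3b-/- embryo 1. Dppa3, a germline and oocyte factor that removes UHRF1 from chromatin, is named after its values were seen. It had 7.11, 22.9 and 16.8 normalized counts in WT and 34.0, 20.9 and 172 in Dnmt3b-/- embryos, and its 2.29 (SE 0.84, adjusted p = 0.0637) missed the threshold and rested on Dnmt3b-/- embryo 3, since it was 0.86 without it.

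Of 12 tested genes that recruit the de novo enzymes or set the chromatin marks they read, 4 were higher and 3 lower in edgeR, with a median log2 fold change of -0.02, and after the GC correction 1 was higher and 1 lower. Whsc1l1, which methylates lysine 36 of histone H3, rose by 0.63 (SE 0.086, adjusted p = 0.00143) and by 0.58 after the GC correction (adjusted p = 0.00128). Other writers of this mark, named after their values were seen, did not all move with it. Nsd1 changed by -0.23 (adjusted p = 0.0218) and by -0.26 after the correction (adjusted p = 0.0206). Setd2 changed by 0.23 (adjusted p = 0.0237) and -0.02 after it (adjusted p = 0.85), and Whsc1 by 0.06 (adjusted p = 0.601) and -0.10 (adjusted p = 0.272). Kdm1b, a demethylase needed for imprints of the oocyte, rose by 0.51 (adjusted p = 0.00654), and this was 0.20 after the correction (adjusted p = 0.221). The lysine 9 methyltransferase gene Ehmt2 changed by -0.69 (SE 0.081, adjusted p = 0.000873) and Trim28, the corepressor of zinc finger proteins at imprints and transposons, by -0.39 (SE 0.068, adjusted p = 0.00334). After the correction these were -0.10 (adjusted p = 0.243) and 0.13 (adjusted p = 0.0787), so neither fall was past the threshold there.

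Of 10 tested cofactors and partners of the TET enzymes, 2 were higher and 1 lower in edgeR, and after the GC correction 0 were higher and 1 lower. Hmces, a protein that binds abasic sites and was described as a reader of 5-hydroxymethylcytosine, had 938, 1141 and 980 normalized counts in WT and 683, 514 and 482 in Dnmt3b-/- embryos. Its change was -0.86 (SE 0.16, adjusted p = 0.00431), and it was -0.79 after the GC correction (adjusted p = 0.00694). Zfp281 and Qser1, proteins that act with TET1, changed by 0.42 (adjusted p = 0.00434) and 0.35 (adjusted p = 0.0101). After the correction they stood at -0.01 (adjusted p = 0.938) and -0.03 (adjusted p = 0.842), so neither rise was past the threshold there.

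Of 16 base excision repair genes, 3 were higher and 7 lower in edgeR, with a median log2 fold change of -0.44, and after the GC correction 0 were higher and 3 lower with a median of -0.13. The only gene of the 6 lists past a 2-fold change at an adjusted p below 0.05 was Neil1, a glycosylase for oxidized bases. It had 92.4, 134 and 106 normalized counts in WT and 33.0, 12.8 and 27.1 in Dnmt3b-/- embryos, which gave -2.17 (SE 0.40, adjusted p = 0.00431) and of -1.93 after the correction (adjusted p = 0.00941). The flap endonuclease gene Fen1 changed by -0.45 (SE 0.068, adjusted p = 0.00202), Parp1 by -0.36 (SE 0.062, adjusted p = 0.00337) and the scaffold gene Xrcc1 by -0.52 (SE 0.10, adjusted p = 0.0059). After the correction Fen1 and Parp1 kept -0.25 (adjusted p = 0.0406) and -0.20 (adjusted p = 0.0312), and Xrcc1 was at -0.18 (adjusted p = 0.122). Of 5 tested deaminase and Gadd45 genes, 0 passed in edgeR and 1 was higher after the correction.

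**Figure D5:**
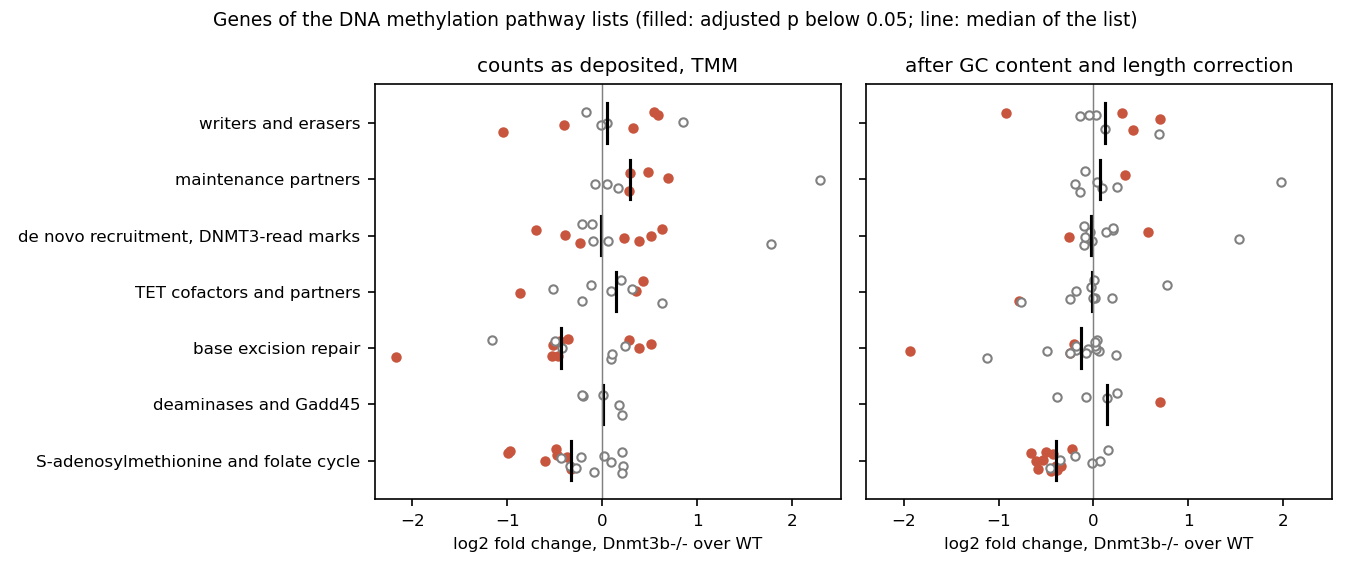
Log2 fold change of Dnmt3b-/- over WT for each tested gene of the members and of 6 pathway lists, from the counts as deposited (left) and after the GC content and length correction (right), filled at an adjusted p below 0.05, with a line at the median of each list. The S-adenosylmethionine and folate list has its median at -0.33 and -0.40, while that of base excision repair goes from -0.44 to -0.13.

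Markers of the cells an E8.5 embryo holds were read beside these genes. Of 11 markers of the embryo's own tissues, among them heart, somite, neural tube and vessels, all were tested, with 3 higher and 3 lower, or 3 and 2 after the GC correction, and summed levels of 336 to 492 FPKM in WT and 319 to 428 FPKM in Dnmt3b-/- embryos. Of 11 epiblast and pluripotency markers 1 was lower, of 9 markers of the primitive streak and tailbud 1 was lower, and of 10 posterior Hox genes 2 were higher. After the GC correction 0 genes of these 3 lists passed. The summed epiblast level was 46.7 to 83.6 FPKM in WT and 44.2 to 51.5 FPKM in Dnmt3b-/- embryos, overlapping. The posterior Hox sum did not overlap, with 45.4 to 71.6 FPKM in WT and 77.8 to 94.3 FPKM in Dnmt3b-/- embryos. All 9 markers of extraembryonic endoderm had log2 fold changes below 0, 1 of them past the threshold before the GC correction and 0 after it, and their sum was 172 to 1127 FPKM in WT and 107 to 400 FPKM in Dnmt3b-/- embryos. The 8 primitive erythroid markers and the 5 tested of 8 germ cell markers held no called gene. Nanos3, Prdm14 and Nanos2 of the germ cell list were too low to be tested. The sums of both lists overlapped between the genotypes. The erythroid sum was 401 to 2266 FPKM in WT and 508 to 1452 FPKM in Dnmt3b-/- embryos. The germ cell sum was between 11.7 and 18.7 FPKM over all 6 embryos. Of 9 trophoblast and decidua markers, Prl3d1, Tpbpa and Prl8a2 were at 0 in all 6 embryos and of the 3 tested Krt8 was lower. The other 2 tested had log2 fold changes above 0 and were not called. The median of the 3 was 1.08, and 0.81 after the GC correction. The sum of the list, most of it the broad epithelial keratin gene Krt8, was 120 to 192 FPKM in WT and 63.9 to 99.7 FPKM in Dnmt3b-/- embryos, without overlap. The part of these markers in the changes of Uhrf1, Tet2 and Dnmt3b was not tested.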

How the data were processed

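RNA-Seq libraries of 3 WT and 3 Dnmt3b-/- embryos at E8.5 were stranded and made after removal of ribosomal RNA. The authors aligned the reads to mm10 with TopHat2 2.0.12 and HTSeq 0.6.0 gave the counts per RefSeq gene. The raw counts were deposited without normalization. A signal of counts divided by DESeq2 1.4.5 size factors was also deposited by the authors and not used here. The authors' deposited log2 fold changes and adjusted p-values hold their own comparison and were not used.

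Counts were scaled with TMM. The genotypes were compared by edgeR 4.0.16 (R 4.3.3, quasi-likelihood) where a gene averaged 10 counts or more per embryo, with Benjamini-Hochberg adjustment and genes called at an adjusted p below 0.05. The fold threshold was 2. Normalized counts are counts over the TMM library size times the mean library size, and FPKM values add the RefSeq exon length. The SE is the log2 fold change divided by the square root of F. Exon lengths, GC content and sequences came from RefSeq on GRCm38, the assembly of mm10, where 22604 genes matched by symbol and 1247 by an older symbol. Copies were found with BLAST 2.17.0 and exact 75-base windows. The GC correction removed natural splines with 5 degrees of freedom on GC content and log2 length from each library. The embryos were separate animals, and replicates differed by more than the sampling noise. The limit of 3 counts covers counting error only. The fit was checked on simulated data with 200 changed genes.

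The alternatives were DESeq2 size factors and total counts as scaling, every gene with a count and those averaging 50 or more, DESeq2 1.42.0, limma 3.58.1 with a pseudocount of 1, a replicate block, the Xist level as covariate, the GC correction alone and with the block, an adjusted p below 0.01, and each embryo left out in turn. The members, though found by name, and the lists were chosen with earlier results of these data known. All members are named, and at most 4 genes of each pathway list by the smallest adjusted p below 0.05 besides those over 2-fold, at most 2 of each marker list by abundance besides those at 0, and for each called member the 3 genes most like it. One gene that this rule names is not reported here.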

Additional observations from a re-analysis of the deposited data

How the results depend on the processing

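Of 150 fold changes of members under alternatives, 138 stayed on their side of the threshold, and 0 called values changed sign. The 12 others concern Dnmt1, Uhrf2 and Tet3 under the 3 GC-corrected fits and Dnmt3b without 1 Dnmt3b-/- embryo. With the correction and the replicate block Dnmt1, Uhrf2 and Tet3 stood at 0.30, 0.13 and -0.05 (edgeR adjusted p = 0.0298, 0.222 and 0.687). With the correction but without WT embryo 2, an alternative chosen after seeing the data, they stood at 0.29, 0.09 and -0.04 (edgeR adjusted p = 0.0154, 0.341 and 0.738). The number of lower members was 1 in place of 2 under the GC correction, under the correction with the block, under the correction without WT embryo 2 and at an adjusted p below 0.01, and 1 to 2 with an embryo left out. The higher pathway genes, 13 in the comparison reported, numbered 5 at an adjusted p below 0.01 and 6 to 14 with an embryo left out. They numbered 3 under the GC correction, 2 under the correction with the block and 2 under the correction without WT embryo 2. The lower ones were 11 under the correction with the block. Over all genes, 320 were higher and 571 lower past 2-fold. These became 177 and 280 with limma, 208 and 366 at an adjusted p below 0.01, and 246 and 710 under scaling to total counts. They were 265 and 187 with the GC correction, 212 and 147 with the correction and the block, and 257 and 175 with the correction but without WT embryo 2. The cause of these differences was not tested.

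Embryos with the same number did not deviate together (r = -0.05, -0.15 and -0.01), so the numbers are not taken as pairs. With the replicate block 265 genes were higher and 516 lower past 2-fold, 3 members were higher and 2 lower, and 9 pathway genes were higher and 15 lower. The level of Dnmt1 in WT was 94.5 FPKM with the longest transcript in place of all exons. Groups of 3 embryos limit what can be seen of Dnmt3l, whose counts lie near the limit of detection. The counts of Tdg are also low, but most of its exon windows recur elsewhere, so they cannot be taken as its transcript level.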
